A study of Mus musculus with 4 samples.

Results

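The 10 genes described here are the transcription factor Atf4, a master regulator of the response to amino acid shortage, and 9 genes of serine synthesis, mitochondrial one-carbon metabolism and cellular stress that it controls in mammalian cells. They were taken by name from the deposited tables, which list 22084 genes, and all 10 were found once in each of the 3 tables. Gene-level read counts come from 4 libraries of telencephalic tissue, the forebrain part that gives rise to cortex and basal ganglia, taken from E13.5 mouse embryos (B6D2F2 strain). KO26F and KO23M were labelled TCF20-/- and are called the KO libraries. WT25F was labelled TCF20+/+, while WT22M was wild type by its title and TCF20+/- by its genotype field, and these 2 are called carriers because each has an intact allele under either label. The gene knocked out, Tcf20, encodes a nuclear protein that acts in transcription. The labels give neither the deleted part of Tcf20 nor the litters of the embryos, so p-values measure only the spread between these libraries.

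Atf4 is known as the effector of the integrated stress response. When kinases that sense amino acid shortage, unfolded protein, viral RNA or low haem phosphorylate the initiation factor eIF2, most translation slows while the Atf4 message is translated more, so the level of Atf4 RNA need not follow that of the protein. Atf4 then switches on enzymes that make amino acids, with Phgdh, Psat1 and Psph as the 3 steps from glycolysis to serine and Shmt2 and Mthfd2 passing carbon from serine to folate in mitochondria. In the embryonic brain Phgdh is abundant in neuroepithelium and radial glia, and its loss in mice causes severe malformation of the brain.

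The DNA element to which Atf4 binds together with C/EBP proteins has the core TGATGNAA, and a related form is TGACGNAA. Both were searched on both strands of RefSeq promoter windows on GRCm38.p6, which run from 250 bases before to 50 bases after each annotated start; the 2 motifs differ at a fixed base and do not overlap. Of the 10 genes, 10 had a window, and 3 held the first motif (Asns, Trib3 and Chac1), against 4.51% of 27025 genes, or 3.97% of 32851 windows of the same length. Chac1 also held the second, against 1.83% of genes and 1.59% of windows. These sites are shown because they are the sequence through which Atf4 is known to act, with the motif in capitals and each line read 5′ to 3′ along the gene's strand. The Asns site lies at chr6:7693210-7693258 on the minus strand, the Trib3 site at chr2:152344028-152344057 on the minus strand just after the RefSeq start, and the Chac1 sites at chr2:119351023-119351082 and chr2:119350992-119351025 on the plus strand. RefSeq starts differ from the gene positions given below, which begin Trib3 at 152344032 and Asns at 7693254. By those positions the Trib3 motif lies before the start and the Asns motif after it.
Asns: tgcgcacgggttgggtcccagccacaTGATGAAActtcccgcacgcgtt
Trib3: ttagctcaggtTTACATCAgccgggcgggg
Chac1, nearer site: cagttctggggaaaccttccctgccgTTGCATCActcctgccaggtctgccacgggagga
Chac1, farther site: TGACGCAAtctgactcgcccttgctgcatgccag
In Trib3 and in the nearer Chac1 site the capitals are the motif on the opposite strand. The windows of the other 7 genes did not hold these letters, which says nothing about sites elsewhere.

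The libraries were of even depth, with 17791641 to 18509743 counts, and values below are CPM, the count of a gene scaled to these totals. Tcf20 stood at 98.6 and 104 CPM in the KO libraries, against 118 and 111 in the carriers (edgeR log2 fold change -0.18, SE 0.10, adjusted p = 1), and counts over the whole gene include any part outside a deletion, so they do not check the genotype. The title letters matched sex-linked genes, with Xist at 519 CPM in KO26F and 450 CPM in WT25F and below 0.2 CPM in KO23M and WT22M. Markers of the telencephalon were present in every library (10 of 10 listed genes). Libraries stood apart in RNA of neighbouring tissue: 7 diencephalon markers summed to 99.7 CPM in WT25F and to between 40.0 and 44.7 CPM in the others, and 8 choroid plexus markers to 206 CPM in WT22M and to between 795 and 1021 CPM in the others.

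None of the 9 genes that could be tested passed for a difference between the KO libraries and the carriers. With the quasi-likelihood test of edgeR over 16252 genes, 0 of 9 passed a Benjamini-Hochberg adjusted p of 0.05, where 10 genes passed in all (0.0615%), and DESeq2 and limma voom also called 0 of the 9. At an unadjusted edgeR p under 0.05 there was 1 of the 9, Psat1, beside 464 of the 16252 genes tested. Trib3 had too few counts for the test. Log2 fold changes of KO over carriers lay between -0.18 (Phgdh) and 0.24 (Psat1), with 5 genes on the higher and 4 on the lower side and a median of 0.09, beside a median of 0.00 over all genes tested. In bulk tissue, fewer cells of a type and less RNA per cell cannot be told apart.

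**Figure D1:**
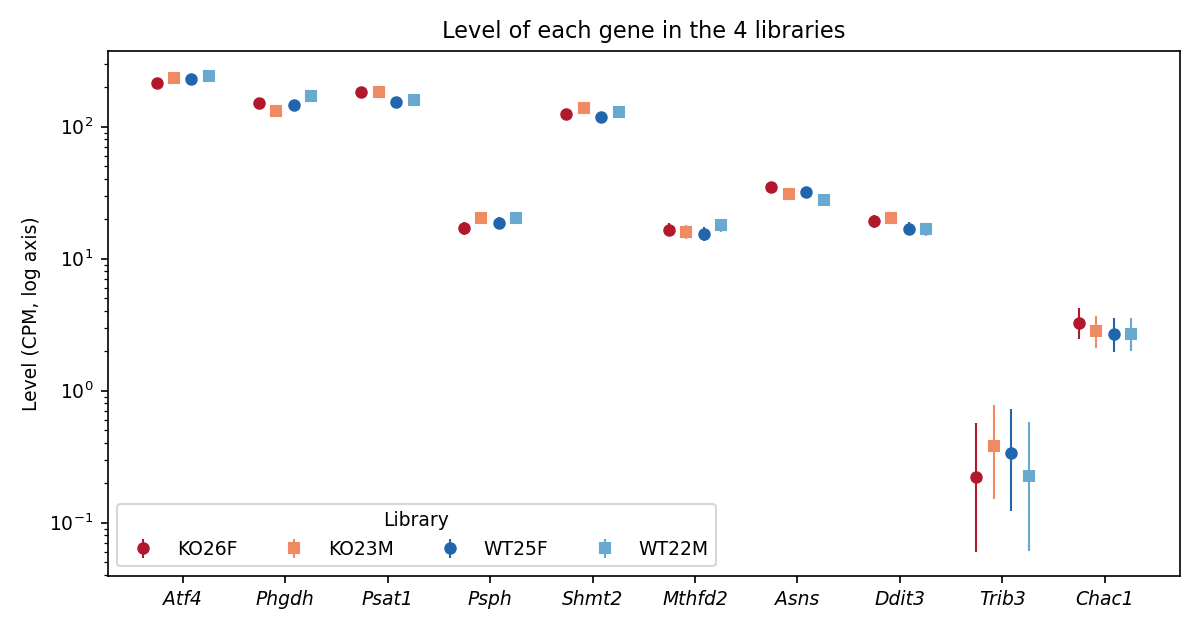
Level of each of the 10 genes in every library, in CPM on a log axis, with bars for 95% counting intervals (exact Poisson); circles are libraries with the title letter F and squares those with M. Levels are not divided by gene length here, so heights compare libraries within a gene: the 4 libraries sit close together for each gene, and Trib3 lies below 0.4 CPM in all of them.

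Atf4 itself (ENSMUSG00000042406, chromosome 15, 80255184 to 80257540, plus strand, on GRCm38) was at 214 CPM in KO26F and 235 CPM in KO23M, against 230 CPM in WT25F and 241 CPM in WT22M. KO26F was the lowest and WT22M the highest, and the arms overlapped. The fold change was 0.954 with a 95% interval of 0.822 to 1.11 (edgeR adjusted p = 0.9997). Atf4 lies 2.55 Mb from Tcf20 on the same chromosome. Rpl3, a ribosomal protein gene on the same side at 2.72 Mb from Tcf20, was lower in KO (log2 fold change -0.74, SE 0.11, edgeR adjusted p = 0.00274), whereas Atf4 did not pass.

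Psat1, the aminotransferase of the second step of serine synthesis (ENSMUSG00000024640, chromosome 19, 15904678 to 15947337, minus strand), had the smallest p of the group. It stood at 184 CPM in KO26F and 185 CPM in KO23M, against 153 CPM in WT25F and 159 CPM in WT22M. Both KO libraries lay above both carriers, and the gap between the arms was larger than the gap within either. The means were 184 ± 0.520 CPM in KO and 156 ± 4.74 CPM in carriers (SD, n = 2 each), a fold of 1.18 with a 95% interval of 1.02 to 1.36. The unadjusted edgeR p was 0.0264 and ranked 235th of 16252 genes, and the adjusted p was 0.9997, so the difference did not pass. With the title letter as a block, a fit with 1 residual degree of freedom, Psat1 was the only gene of the group that passed (edgeR adjusted p = 0.0414), where 0.757% of all genes passed. Without WT22M, the library with few choroid plexus reads, its log2 fold change was 0.28, and without WT25F, the library with more diencephalon reads, it was 0.19, and neither passed.

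Set against the other 9 genes of the group within each library, the count of Psat1 was higher in both KO libraries over 5 of them (Phgdh, Psph, Atf4, Shmt2 and Mthfd2) and overlapped over 4 (Asns, Ddit3, Chac1 and Trib3). The count of Psat1 over that of Phgdh was 1.22 in KO26F and 1.39 in KO23M, against 1.04 in WT25F and 0.929 in WT22M. Over Psph it was 10.9 and 9.14 in KO, against 8.21 and 7.88 in the carriers, and over Atf4 0.858 and 0.785, against 0.665 and 0.663. Over Ddit3, by contrast, it was 9.61 and 9.07 in KO, against 9.08 and 9.55 in the carriers. These ratios do not depend on how libraries are scaled. They were chosen after the levels were seen and were not tested. Psat1 itself stood higher in both KO libraries, so its ratio over a gene of even level separates in advance and gives no support. No share of such ratios over all genes was computed. Markers of dividing cells lay in the same order: 12 markers summed to 1328 and 1289 CPM in the KO libraries, against 1153 and 1155 CPM in the carriers. On the higher side were 12 of 12, with none at 0, beside 8232 of 16252 genes tested. Both KO libraries lay above both carriers for 8 of the 12, beside 13.6% over all genes tested. None of the 12 passed without the block, and with the title letter as a block 2 did (Rrm2 and Mki67, both higher). Markers of mesenchyme and meninges lay in the opposite order. Their 9 genes summed to 351 and 368 CPM in KO, against 439 and 446 CPM in the carriers. Both KO libraries lay below both carriers for 8 of the 9, beside 13.4% over all genes tested. The block called 3 of the 9 lower (Col1a1, Col1a2 and Aldh1a2). It also called 1 marker each of intermediate progenitors (Mfng), telencephalon (Dlx2), choroid plexus (Aqp1) and red blood cells (Hba-x), all higher. The levels of Aqp1 overlapped, at 16.22 and 11.45 CPM in KO against 14.77 CPM in WT25F and 4.272 CPM in WT22M. Of the 8 choroid plexus markers 0 had both KO libraries above both carriers. Over all genes the block called 0.757%. Further sums that did not overlap were those of 7 intermediate progenitor markers (854 and 892 CPM in KO, 745 and 822 CPM in carriers), of 10 telencephalon markers (2808 and 2661 CPM, against 2466 and 2657 CPM), of 8 endothelial and pericyte markers (313 and 307 CPM, against 339 and 339 CPM), of 10 neuron markers (7259 and 7375 CPM, against 7571 and 7462 CPM) and of 8 microglia markers (69.2 and 72.6 CPM, against 74.5 and 91.6 CPM). Radial glia markers overlapped between the arms (2147 and 2195 CPM in KO, 2159 and 2208 CPM in carriers). Members of these lists did not all go one way. Of the 8 microglia markers 6 were on the lower and 2 on the higher side (P2ry12, log2 fold change 0.90, and Cx3cr1, 0.06). Of the 10 neuron markers 7 were lower and 3 higher, and of the 10 telencephalon markers 8 were higher and 2 lower. All 7 intermediate progenitor markers were higher and all 8 endothelial and pericyte markers lower. How often sums over other genes separate the arms was not counted. The part of these cell types in the level of Psat1 was not tested.

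Phgdh, the dehydrogenase that opens serine synthesis (ENSMUSG00000053398, chromosome 3, 98313170 to 98339990, minus strand), was at 151 CPM in KO26F and 132 CPM in KO23M, against 147 CPM in WT25F and 172 CPM in WT22M. KO23M was the lowest library and WT22M the highest, while KO26F and WT25F lay close together. The log2 fold change was -0.18 (SE 0.11, edgeR adjusted p = 0.9997), and it was -0.30 without WT25F and -0.043 without WT22M. The low value in KO23M stood beside reads counted in copies of the gene. The authors' protein annotation matched 5 other genes to Phgdh, 4 of them processed pseudogenes, which are reverse-transcribed copies without introns. Gm7901 (chromosome 8, 75711600 to 75713196) had 14 and 251 counts in KO26F and KO23M, against 13 and 20 counts in WT25F and WT22M. Gm9347 (chromosome 7, 136810909 to 136812515) had 3 and 145 counts in the KO libraries, against 3 and 2 in the carriers. Both were high in KO23M alone.

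The transcripts of Gm7901 and Gm9347 are almost identical to that of Phgdh in the GENCODE vM21 sequences. Gm7901 differs at 18 of 1595 aligned bases (98.87% identical, with a longest identical run of 312 bases), and Gm9347 at 35 of 1601 (97.81%, longest run 150). Gaps of 2 and 7 bases are not counted there. Gm13337, with 14 counts in KO23M and 0 elsewhere, was 96.17% identical, and Gm5320 94.34%. The lincRNA Gm44983 aligned over only 15 bases and is a match by annotation alone. The stretch of 60 coding bases in which Gm7901 and Gm9347 together differ most from Phgdh shows how little separates them. It spans bases 594 to 653 of the Phgdh transcript. Capitals mark, in Phgdh, each base at which a copy differs and, in a copy, its own differing bases, of which Gm7901 has 2 and Gm9347 has 6.
Phgdh: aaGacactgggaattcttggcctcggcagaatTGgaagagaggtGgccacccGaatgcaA
Gm7901: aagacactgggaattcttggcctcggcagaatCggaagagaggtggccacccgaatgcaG
Gm9347: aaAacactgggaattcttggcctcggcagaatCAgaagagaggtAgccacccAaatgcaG

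With the 5 matching genes added, Phgdh came to 152 CPM in KO26F and 155 CPM in KO23M, against 148 CPM in WT25F and 173 CPM in WT22M. The copies made up 14.3% of the sum in KO23M and between 0.655% and 0.827% in the other 3 libraries. The KO libraries then lay close together, and the log2 fold change of KO over carriers was -0.07 (edgeR adjusted p = 1), against -0.18 for Phgdh alone; this sum was chosen after the counts of the copies were seen. The count of Psat1 over the sum was 1.21 in KO26F and 1.19 in KO23M, against 1.03 in WT25F and 0.922 in WT22M. Psat1 alone was already higher in both KO libraries, so this order gives no added support. Reads of near-identical genes can be split between them, and no source used here states how such reads were counted, so the level of Phgdh is uncertain, most of all in KO23M.

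**Figure D2:**
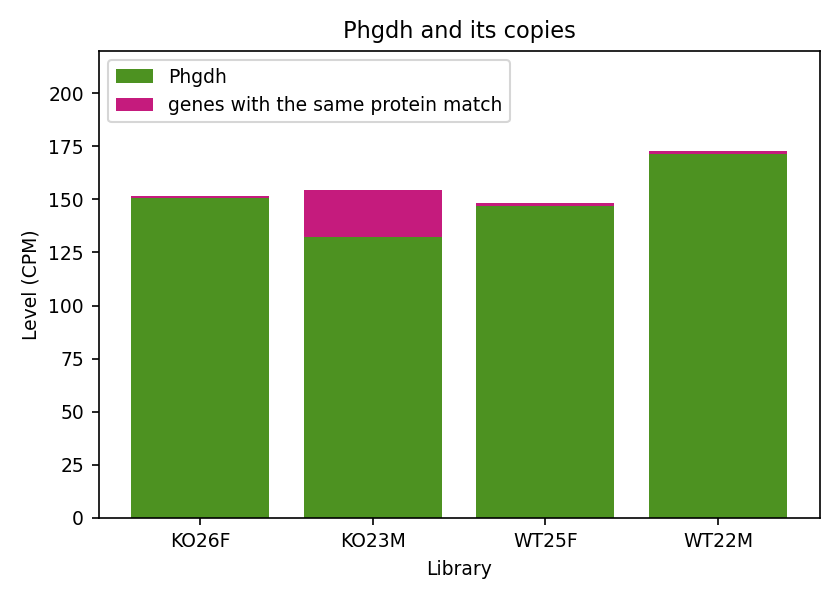
Level of Phgdh (green) and of the 5 genes with the same protein match (pink, stacked on top) in each library, in CPM. The copies add 22.2 CPM in KO23M and at most 1.35 CPM in the other libraries, and with them KO23M stands level with KO26F.

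Psph, the phosphatase of the last step (ENSMUSG00000029446, chromosome 5, 129765558 to 129787449, minus strand), was at 16.9 CPM in KO26F and 20.2 CPM in KO23M, against 18.6 CPM in WT25F and 20.2 CPM in WT22M. The gap within either arm exceeded that between the arm means, which were 18.6 ± 2.31 CPM in KO and 19.4 ± 1.15 CPM in carriers (SD, n = 2 each). Its exons share 452 bases with Cct6a, a chaperonin subunit gene on the opposite strand with 3565 to 3938 counts a library, and without a stated strand setting the reads of that stretch cannot be told apart.

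The mitochondrial folate enzymes did not pass, and their arms overlapped. Shmt2, which splits serine into glycine and a one-carbon unit (ENSMUSG00000025403, chromosome 10, 127517123 to 127522444, minus strand), was at 124 CPM in KO26F and 138 CPM in KO23M, against 118 CPM in WT25F and 129 CPM in WT22M. In each arm the library with the letter M was the higher (log2 fold change 0.09, SE 0.10, edgeR adjusted p = 0.9997). Mthfd2, the next enzyme of the folate cycle (ENSMUSG00000005667, chromosome 6, 83305691 to 83325908, minus strand), was at 16.5 CPM in KO26F and 15.9 CPM in KO23M, against 15.4 CPM in WT25F and 17.9 CPM in WT22M. Both KO libraries lay between the carriers, and the 95% interval of the fold ran from 0.776 to 1.22.

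Asns, which makes asparagine from aspartate (ENSMUSG00000029752, chromosome 6, 7675169 to 7693254, minus strand), was at 34.9 CPM in KO26F and 31.0 CPM in KO23M, against 31.8 CPM in WT25F and 27.8 CPM in WT22M. KO26F was the highest and WT22M the lowest, with the other libraries close together between them. The fold was 1.10 (95% interval 0.921 to 1.32, edgeR adjusted p = 0.9997).

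Among the stress genes, Ddit3 and Chac1 lay above both carriers in both KO libraries. Ddit3, the transcription factor CHOP that drives cell death under lasting stress (ENSMUSG00000025408, chromosome 10, 127290774 to 127296288, plus strand), was at 19.1 CPM in KO26F and 20.4 CPM in KO23M, against 16.8 CPM in WT25F and 16.7 CPM in WT22M. The means were 19.8 ± 0.866 CPM in KO and 16.8 ± 0.0964 CPM in carriers (SD, n = 2 each), and the log2 fold change of 0.23 (SE 0.15) had an unadjusted edgeR p of 0.134 and an adjusted p of 0.9997. Ddit3, like Psph, overlaps a neighbour: it shares 68 exon bases with Mars, a tRNA synthetase gene on the opposite strand with 1362 to 1515 counts a library.

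Chac1, an enzyme that breaks down glutathione (ENSMUSG00000027313, chromosome 2, 119351229 to 119354381, plus strand), had 59 and 52 counts in KO26F and KO23M, against 48 and 48 in WT25F and WT22M. At 2.67 to 3.25 CPM its counting intervals overlapped in all 4 libraries. The fold of 1.12 had a 95% interval of 0.730 to 1.73, and these libraries cannot tell apart folds within that range. Trib3, a pseudokinase that restrains the response (ENSMUSG00000032715, chromosome 2, 152337422 to 152344032, minus strand), had 4 and 7 counts in KO26F and KO23M, against 6 and 4 counts in WT25F and WT22M. These are 0.221 to 0.378 CPM, little above the 0.162 to 0.169 CPM that 3 counts correspond to, and no fold is given.

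Counted together, 3 of the 9 tested genes had both KO libraries above both carriers (Psat1, Ddit3 and Chac1) and 0 had both below. Over all genes tested these shares were 13.6% above and 13.4% below. The range from the lowest to the highest library had a median of 0.27 on the log2 scale over the 9 genes, beside 0.31 over all genes tested.

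**Figure D3:**
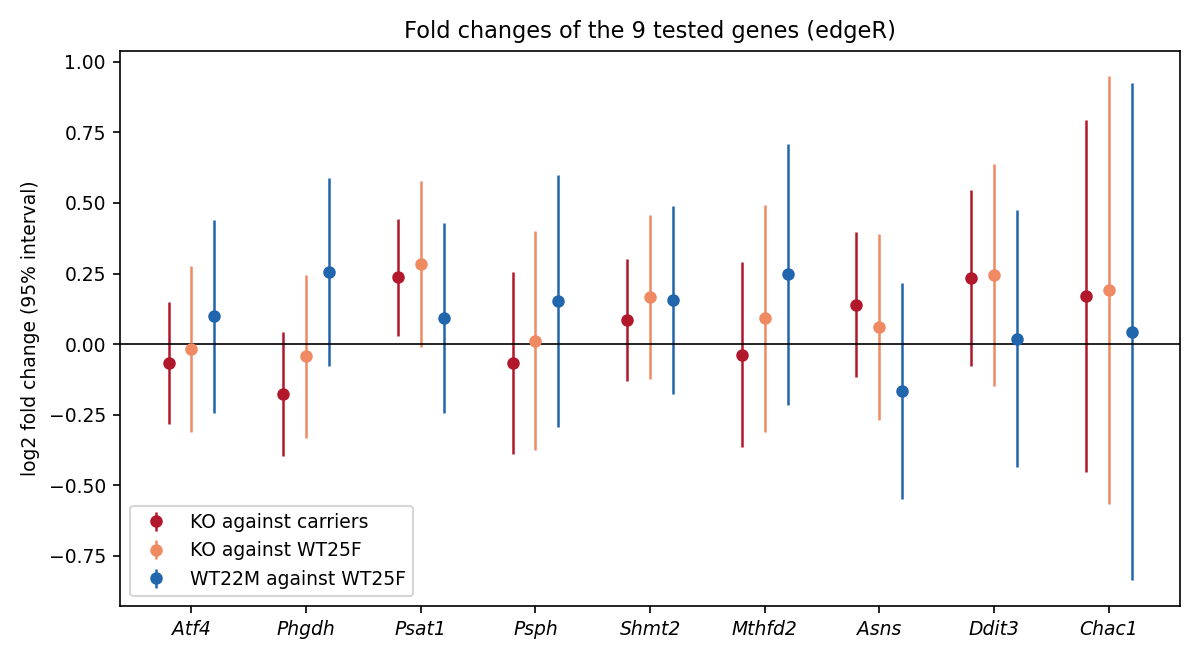
Log2 fold change of the 9 tested genes with 95% intervals from edgeR, for KO over carriers (red), KO over WT25F (orange) and WT22M over WT25F (blue). Of the 27 intervals 1 excludes 0, that of Psat1 for KO over carriers (0.03 to 0.44), and the adjusted p of that gene did not pass.

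The deposited tables are built on WT25F, and against this library alone no gene of the group passed either. For KO against WT25F, in a fit with 3 groups whose spread comes from the KO libraries, 0 of 9 genes passed where 0.345% of all genes did. At an unadjusted p under 0.05 edgeR gave 0 of the 9, beside 558 of the 16252 genes tested. DESeq2 (112 of all genes tested) and limma voom (562) gave 0 of the 9 as well. Psat1 was nearest, at 0.28 ± 0.15 on the log2 scale (estimate and SE, with an edgeR adjusted p of 0.9999). For WT22M against WT25F, which compares 2 single libraries, 0 of 9 passed where 0.714% of all genes did. Again 0 had an unadjusted p under 0.05 by edgeR, DESeq2 or limma voom, beside 793, 172 and 727 of the 16252 genes tested. Here Phgdh (log2 fold change 0.25, SE 0.17) and Mthfd2 (0.25, SE 0.24) had the highest values and Asns (-0.17, SE 0.20) the lowest. Both comparisons share WT25F.

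The authors' deposited tables, which set single libraries against each other, gave many more small p-values. In the authors' deposited table of KO26F against WT25F, 2 of the 10 genes had an adjusted p under 0.05, Psat1 higher and Atf4 lower, where 13.7% of the listed genes did. In that of KO23M, 4 did, with Psat1, Shmt2 and Ddit3 higher and Phgdh lower, where 22.1% of genes did. In that of WT22M, 2 did, with Phgdh and Shmt2 higher, where 22.4% of genes did. Psat1 was the only one of the 10 to pass for KO26F and KO23M alike, with an adjusted p in the authors' deposited tables of 4.58e-11 for KO26F and 4.81e-12 for KO23M and log2 fold changes of 0.27 and 0.27. In the table of WT22M in the authors' deposited set its adjusted p was 0.182. The share of all genes that passed for both KO libraries was not counted, so the joint call of Psat1 has no background beside it. All these tables use WT25F, the library with the lowest Psat1 level, so their results are not independent. With 1 library on each side, their p-values hold no spread between embryos. The authors' deposited tables marked 0 of the 10 genes as significant, all having an absolute log2 fold change below 1.

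Within the title letters, the log2 ratio of KO to carrier for Psat1 was 0.27 for the F libraries, with counting error giving 0.20 to 0.34 at 95%, and 0.21 for the M libraries, with 0.14 to 0.28. For Atf4 it was -0.10 in the F libraries (-0.16 to -0.04) and -0.03 in the M libraries (-0.09 to 0.03). For Ddit3 it was 0.19 (-0.04 to 0.41) in F and 0.29 (0.07 to 0.51) in M. Positive ratios for Psat1 and Ddit3 followed from their levels, since both KO libraries lay above both carriers, and give no added support. With 1 KO and 1 carrier library in each letter, the intervals reflect counting error and not the spread between embryos.

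Divided by exon length, Atf4 was the most abundant of the group at 97.5 CPM per kb, with libraries between 90.9 and 102. Exon length is the union of all annotated exons of a gene. It can exceed that of the transcript present, as for Phgdh with 2486 bases beside 1893 for its longest protein-coding transcript. The order depends on this choice. Phgdh followed at 60.5 CPM per kb (53.3 to 69.0), then Shmt2 at 40.9 (37.9 to 44.5) and Psat1 at 40.0 (35.9 to 43.4), whose ranges overlapped. Asns (11.5 CPM per kb) and Ddit3 (10.7) overlapped as well, as did Mthfd2 (4.71) and Psph (4.39). Chac1 at 1.75 and Trib3 at 0.136 CPM per kb closed the order. All other neighbours in this order did not overlap between libraries. Within serine synthesis the first and second enzymes were thus far above the third in RNA per kb of exon, in KO and carrier libraries alike.

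The genes whose profile over the 4 libraries lay closest to that of Atf4, among 10217 genes with a mean of at least 10 CPM and by Euclidean distance of centred log2 CPM, were Socs3 (0.0113), Fabp7 (0.0127), Nt5c (0.0141), Arpc1a (0.0163) and Pfdn2 (0.0166). For Psat1 they were Stil (0.0244), Ccdc130 (0.0322), Dtl (0.0375), Ccnf (0.0382) and Srsf9 (0.0401). Stil was at 17.2 and 17.1 CPM in KO, against 14.0 and 14.6 CPM in carriers. Ccdc130 was at 23.22 and 23.18 CPM, against 18.72 and 19.95 CPM, and Dtl at 25.27 and 24.96 CPM, against 21.29 and 22.26 CPM. Ccnf was at 61.3 and 61.0 CPM, against 52.1 and 54.2 CPM, and Srsf9 at 73.81 and 75.1 CPM, against 62.86 and 66.44 CPM. With 10217 genes compared over only 4 libraries, a close profile need not mean a shared function. No background of such distances over all genes was computed, and a shared role was not tested.

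Other genes of the pathway, taken from lists, had 1 called member, the cystine and glutamate exchanger Slc7a11. Of 19 tested genes of serine, glycine and folate metabolism 0 passed, with 14 on the higher side and a median log2 fold change of 0.11. Cbs, which joins serine to homocysteine, was at 9.88 and 7.08 CPM in KO, against 5.91 and 6.69 CPM in carriers, and Amt of the glycine cleavage system at 35.8 and 33.9 CPM, against 41.4 and 38.4 CPM. Tyms of this list is also among the markers of dividing cells.

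Of 22 other genes known as Atf4 targets 0 passed (14 higher, median 0.03). Jdp2, a bZIP repressor, was at 4.58 and 5.35 CPM in KO, against 7.41 and 6.80 CPM in carriers (log2 fold change -0.52, SE 0.22, edgeR adjusted p = 1). The translation inhibitor Eif4ebp1 was at 6.68 and 8.59 CPM, against 6.02 and 5.90 CPM, and the stress protein gene Nupr1 at 1.05 and 1.24 CPM, against 1.78 and 1.57 CPM. A further list held 15 genes of eIF2 signalling and translation initiation. It includes the eIF2 kinases, the eIF2B exchange factor, eIF2 phosphatase subunits, Eif2s1, Gcn1l1, Impact and Eif2a. Of these 15 genes 0 were called, 6 were higher and 9 lower, with a median of -0.02. Among them the ER stress kinase gene Eif2ak3 was at 22.7 and 23.3 CPM, against 21.1 and 18.4 CPM, and the double-stranded RNA kinase gene Eif2ak2 at 2.76 and 2.76 CPM, against 2.95 and 4.44 CPM. Eif2a was at 53.8 and 46.4 CPM, against 56.2 and 53.5 CPM.

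Of 14 amino acid transporters 1 passed. Slc7a11, which brings in cystine for glutathione and is a known Atf4 target, was at 21.9 and 22.4 CPM in KO, against 5.52 and 3.99 CPM in carriers (log2 fold change 2.22, SE 0.19, edgeR adjusted p = 6.5e-08). The other 13 did not pass, such as Slc7a6 at 45.0 and 41.9 CPM, against 40.1 and 40.2 CPM, and Slc38a7 at 66.1 and 62.1 CPM, against 68.0 and 69.0 CPM, and the list had a median of -0.01. Cytosolic tRNA synthetases, which load amino acids onto tRNA, had 0 of 19 called, 8 higher, and a median of 0.00; the genes with the smallest p were Iars (log2 fold change 0.15), Dars (0.15) and Cars (-0.12).

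The other branches of the unfolded protein response showed no called gene either. Of 20 chaperone and ER quality control genes 16 were on the higher side (median 0.06), and 8 had both KO libraries above both carriers, a share to be read beside the 13.6% over all genes tested. Sdf2l1 was at 14.9 and 18.04 CPM in KO, against 11.5 and 14.4 CPM in carriers, Hsp90b1 at 105 and 93.0 CPM, against 92.5 and 80.9 CPM, and Manf at 52.1 and 52.9 CPM, against 45.5 and 47.7 CPM. Of 10 mitochondrial chaperones and proteases 4 were higher (median -0.02), with Lonp1 at -0.13, Hspe1 at -0.09 and Clpp at -0.03 on the log2 scale.

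**Figure D4:**
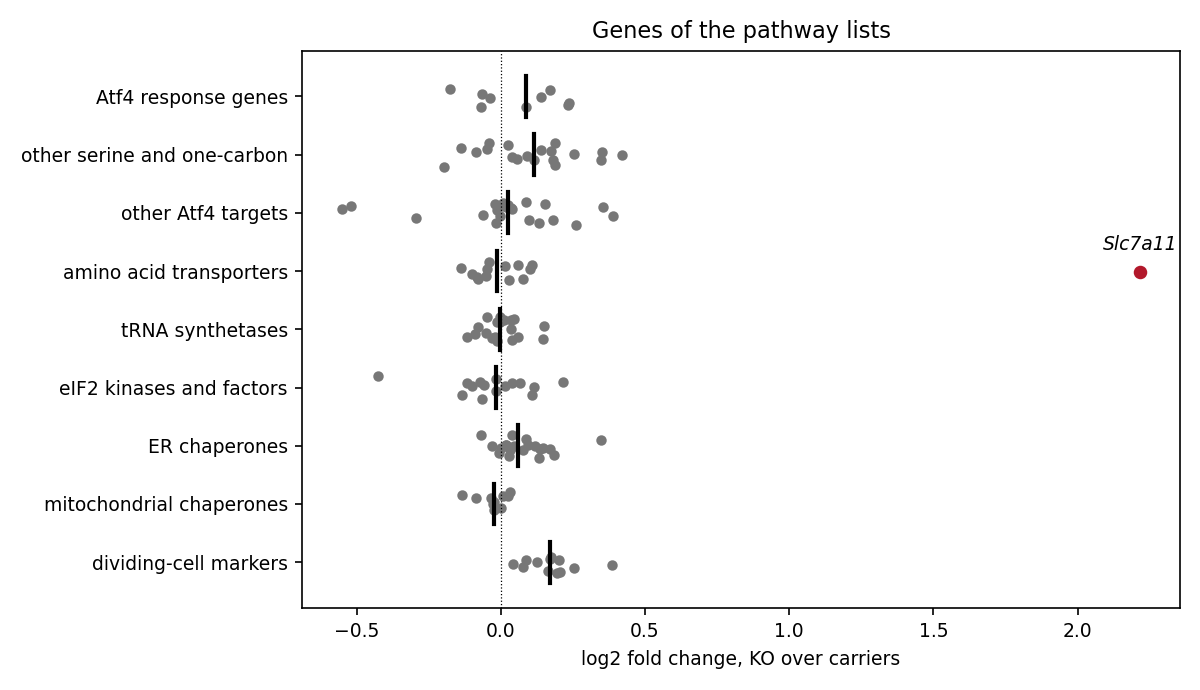
Log2 fold change of KO over carriers for each tested gene (points) of the 9 Atf4 response genes, of 7 lists of related pathways and of markers of dividing cells, with a black bar at each list's median and a dotted line at 0; vertical scatter within a list has no meaning. Slc7a11, in red, is the 1 gene past the threshold, at 2.22, while the medians lie between -0.02 and 0.17.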

How the data were processed

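RNA was sequenced from 4 libraries, which the labels' protocols describe as TruSeq libraries of 2 ug RNA; their dissection text names the cortex where titles name the telencephalon. Bowtie2 2.2.3, TopHat2 2.0.12, HTSeq 0.6.0 and the build mm9 are named in the submitters' processing notes; gene positions in the tables match GRCm38 (91.8% identical to GENCODE vM21). The authors deposited whole-number counts per gene and CPM values (count over library total) per the file headers, with a log2 fold change, p-value and adjusted p-value for each comparison with WT25F.

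Tables were joined by gene identifier, a missing gene being set to 0. Counts were tested with edgeR 4.0.16 (TMM, filterByExpr, robust quasi-likelihood fit, Benjamini-Hochberg adjustment over 16252 genes). Alternatives used DESeq2 1.42.0, limma 3.58.1, RLE factors, other filters, the title letter as a block and each library left out. Scripts were tested on simulated data. Copies were aligned with Biopython 1.88. Members and lists were chosen with earlier results of these data known; genes named from a list are the 3 with the smallest p and any called, except that some are not reported here. Of the listed pathway symbols, Fgf21, Adm2 and Mars1 were not matched. Mars1 is present under the symbol Mars, with 1362 to 1515 counts a library, and was left out of the tRNA synthetases. Intervals and floors cover counting error only unless from edgeR.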

Additional observations from a re-analysis of the deposited data

Results flagged for a closer look

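Phgdh, the opening enzyme of serine synthesis, differed in its direction between the title letters. On the log2 scale, KO26F over WT25F gave 0.03 for this gene, with a 95% counting interval of -0.04 to 0.11. KO23M over WT22M gave -0.37 (-0.45 to -0.30), and the first minus the second was 0.41 (0.30 to 0.52). Each letter has 1 library per arm, so this difference between embryos was not tested against replicates. With the counts of its copies added to Phgdh, the ratios were 0.03 and -0.16 and the difference 0.19 (0.09 to 0.30). The cause was not tested.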

How the results depend on the processing

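For KO against carriers, 0 of the 9 genes passed under RLE factors, DESeq2, limma voom, both other filters, without X and Y genes, and with any library left out; the title letter as a block called 1 (Psat1). Over all genes the block called 123 in place of 10, and leaving out a library called 48 (KO26F), 65 (KO23M), 100 (WT25F) or 59 (WT22M); the cause was not tested. Across libraries, the difference of F from M in KO and in carriers had a correlation over genes of 0.097 off X and Y, and 0.219 over all genes. For KO against WT25F the count of 56 became 23 with DESeq2, 0 without a filter (353 at an unadjusted p under 0.05) and 10 with the spread of the 2-arm fit. For WT22M against WT25F, 116 became 33, 0 (520 unadjusted) and 0 (292 unadjusted). No gene of the group was called in these. Of 226 fold changes of single genes under alternatives, 216 kept their direction and call, 1 (Psat1 with the block) became a call and 9 changed sign, 4 of them for KO against WT25F (Atf4 0.069 and Asns -0.0050 without KO26F, Phgdh 0.025 and Psph -0.15 without KO23M). For KO against carriers, leaving out libraries turned the sign of uncalled values: Atf4 ranged from -0.16 to 0.016 (without KO26F), Psph from -0.22 to 0.072 (without KO26F; 0.012 without WT22M), Shmt2 from -0.020 (without KO23M) to 0.18 and Mthfd2 from -0.16 to 0.092 (without WT22M). Phgdh ranged from -0.30 (without WT25F) to -0.043 (without WT22M), Asns from 0.061 (without WT22M) to 0.22 (without WT25F) and Psat1 from 0.19 (without WT25F) to 0.28 (without WT22M). Depth limits Chac1 and Trib3.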
